A study of Mus musculus with 3 samples.

Results

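The comparison described here is that of mouse myotubes kept in cancer cell conditioned media with resveratrol against myotubes kept in the same conditioned media without it. Its members are the loci of the gene table whose mean over the 3 libraries of the study was 1 FPKM or more (a transcript level corrected for transcript length and sequencing depth). Of 24401 loci, 11858 met this rule, and 11211 genes are described by name because their locus carries 1 gene symbol (360 member loci had no symbol and 258 had several). The cells were C2C12, a mouse line that divides as myoblasts and fuses into multinucleate myotubes when serum is withdrawn. Growth was in DMEM with 10% fetal bovine serum, and differentiation took 72 h in DMEM holding 1 µg/ml insulin and 2% horse serum. They then received, for 24 h, either DMEM alone as control medium, media conditioned for 24 h by S2-013 cells (a human pancreatic cancer line), or those conditioned media with 50 µM resveratrol. Each treatment was a single RNA-seq library from total RNA, so nothing here has a replicate check, no test was made, and every difference is one between these libraries. Resveratrol was added only to conditioned media in the libraries used, so its addition is seen only on top of those media, and no label names its solvent. The labels call the cells myoblasts, and the cultures can hold unfused myoblasts beside myotubes.

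Differences are given as the log2 ratio of FPKM + 1, resveratrol over conditioned media, and the size rule calls a gene higher at a ratio of 1 or more and lower at -1 or less. The threshold on the mean is a cut on low levels: Phkg1, a phosphorylase kinase subunit, was just inside it at a mean of 1.00 FPKM, and Eps8l2 was just outside it at 0.999 FPKM. The depth of each library is unknown because only FPKM values are given, so no counting interval can be stated. Loci of 200 bases or less, mostly small RNA genes, held 79.3% of the FPKM sum in the conditioned media library and 78.4% in the resveratrol library. Myotube markers were high in all libraries: the summed level of 12 markers was 5938 FPKM in control medium, 5102 FPKM in conditioned media and 7016 FPKM with resveratrol. Myoblast and reserve cell markers, 9 genes led by Des, summed to 763 FPKM in control medium, 800 FPKM in conditioned media and 1056 FPKM with resveratrol. Des, also a member of the titin and Z-disc list described below, held 397, 433 and 602 FPKM of these sums. The sums therefore repeat part of that list. The markers were mixed: of 7 measured, 5 had a log2 ratio above 0 and 2 below. The 2 were Myf5 (-1.47, lower by the size rule) and Cdh15 (-0.33). Pax7, below the threshold and chosen here after its values were seen, was at 1.04, 0.699 and 0.271 FPKM in that order. All 7 endothelial and all 7 adipocyte markers were below 1 FPKM in each library, as were 6 of 7 epithelial and 6 of 8 leukocyte markers, with the pan-leukocyte gene Ptprc at 0. Fibroblast markers summed to 2448, 3367 and 2359 FPKM in the same order, led by collagen genes that muscle cells also express. In such bulk samples fewer cells of a type and less RNA per cell cannot be told apart.

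Resveratrol is a plant stilbenoid that has been studied for its effects on sirtuins, the aryl hydrocarbon receptor, oestrogen receptors and cell division. Media conditioned by pancreatic cancer cells are used as a culture model of cancer cachexia, the muscle wasting that accompanies tumours. Differentiating myoblasts leave the cell cycle before they fuse, and the genes of mitosis are switched on late in the cycle by the MuvB complex together with B-Myb and FoxM1, which acts through a promoter element called the cell cycle genes homology region (CHR), often accompanied by CCAAT boxes bound by NF-Y. Genes of DNA replication are instead switched on earlier through E2F sites. Muscle genes are bound by MyoD and myogenin at E-boxes.

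The following promoter sequences are shown because many of the genes farthest below 0 in the comparison were mitotic genes. They were read from RefSeq promoter windows of build GRCm38.p6, cover the 120 bases before the annotated start, and are written 5′ to 3′ on the strand of the gene. The first 6 are the mitotic genes with the lowest ratios among those with both a CHR and a CCAAT box in this stretch, and capitals mark the CHR (TTTGAA, or TTCAAA as it reads on the other strand) and the CCAAT box (CCAAT or ATTGG).
Ube2c (chr2:164769809-164769928, plus strand): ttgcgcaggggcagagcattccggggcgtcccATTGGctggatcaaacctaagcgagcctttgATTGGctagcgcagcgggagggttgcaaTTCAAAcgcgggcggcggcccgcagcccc
Cdc20 (chr4:118437344-118437463, minus strand): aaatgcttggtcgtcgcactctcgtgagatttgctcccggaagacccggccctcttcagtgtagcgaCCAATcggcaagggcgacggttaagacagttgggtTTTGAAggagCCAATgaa
Kif22 (chr7:127042421-127042540, minus strand): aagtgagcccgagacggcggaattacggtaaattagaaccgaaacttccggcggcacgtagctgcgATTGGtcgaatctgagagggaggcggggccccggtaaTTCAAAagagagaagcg
Top2a (chr11:99024190-99024309, minus strand): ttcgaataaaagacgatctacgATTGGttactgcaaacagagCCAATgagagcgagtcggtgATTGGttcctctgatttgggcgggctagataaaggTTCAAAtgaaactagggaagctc
Kif11 (chr19:37376262-37376381, plus strand): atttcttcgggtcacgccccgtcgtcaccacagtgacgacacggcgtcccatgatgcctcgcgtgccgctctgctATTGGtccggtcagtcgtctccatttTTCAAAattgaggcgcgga
Cdk1 (chr10:69352913-69353032, minus strand): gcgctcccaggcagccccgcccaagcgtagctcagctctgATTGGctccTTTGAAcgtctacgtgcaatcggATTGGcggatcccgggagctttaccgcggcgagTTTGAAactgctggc
In each of the 6 a CHR began no more than 29 bases before the start, and in Cdk1 a further copy began 71 bases before it. A pair of replication genes follows for contrast. They are the replication genes with the smallest absolute ratios among those with an E2F match here, and capitals mark that match (TTTCCCGC, TTTGGCGC, TTTGCCGC or TTTCGCGC on either strand).
Orc3 (chr4:34614943-34615062, minus strand): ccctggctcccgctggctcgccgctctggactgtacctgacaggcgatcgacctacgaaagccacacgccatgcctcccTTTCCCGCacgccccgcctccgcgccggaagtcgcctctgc
Rfc3 (chr5:151651209-151651328, minus strand): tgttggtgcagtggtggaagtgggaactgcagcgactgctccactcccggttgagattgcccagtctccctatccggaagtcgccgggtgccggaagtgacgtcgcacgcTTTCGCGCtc
The last pair holds the sarcomere genes with the highest ratios among those with the E-box CAGCTG in this stretch, shown in capitals. Other E-box letters were not searched.
Mybph (chr1:134193328-134193447, plus strand): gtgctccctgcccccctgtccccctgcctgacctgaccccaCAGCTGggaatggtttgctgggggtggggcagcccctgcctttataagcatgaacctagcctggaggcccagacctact
Klhl40 (chr9:121777487-121777606, plus strand): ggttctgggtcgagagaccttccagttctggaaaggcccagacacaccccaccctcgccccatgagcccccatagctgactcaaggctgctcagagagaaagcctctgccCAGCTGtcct

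Most genes differed little. The median log2 ratio over all 11211 genes was 0.03, the middle 50% lay between -0.28 and 0.28, and 9026 genes (80.5%) were within 1.5-fold. Of all genes 5944 (53.02%) had a ratio above 0, which is the background for counts of members above or below 0. By the size rule 160 genes were higher with resveratrol and 516 were lower, which is 1.43% and 4.60% of all genes and is the background against which every count of list members below is to be read. Over all member loci the same counts were 182 (1.53%) and 589 (4.97%). The lower side also reached farther: 44 genes had a ratio of -2 or less, and 6 had a ratio of 2 or more. Genes of low level were more often lower, with 7.49% lower among the 1122 genes of lowest mean FPKM and 2.32% among the 1121 of highest mean FPKM. Of 83 gene lists with at least 3 measured members, 24 held no gene past the size rule, 4 had a median of -1 or less, and 0 had a median of 1 or more.

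**Figure D1:**
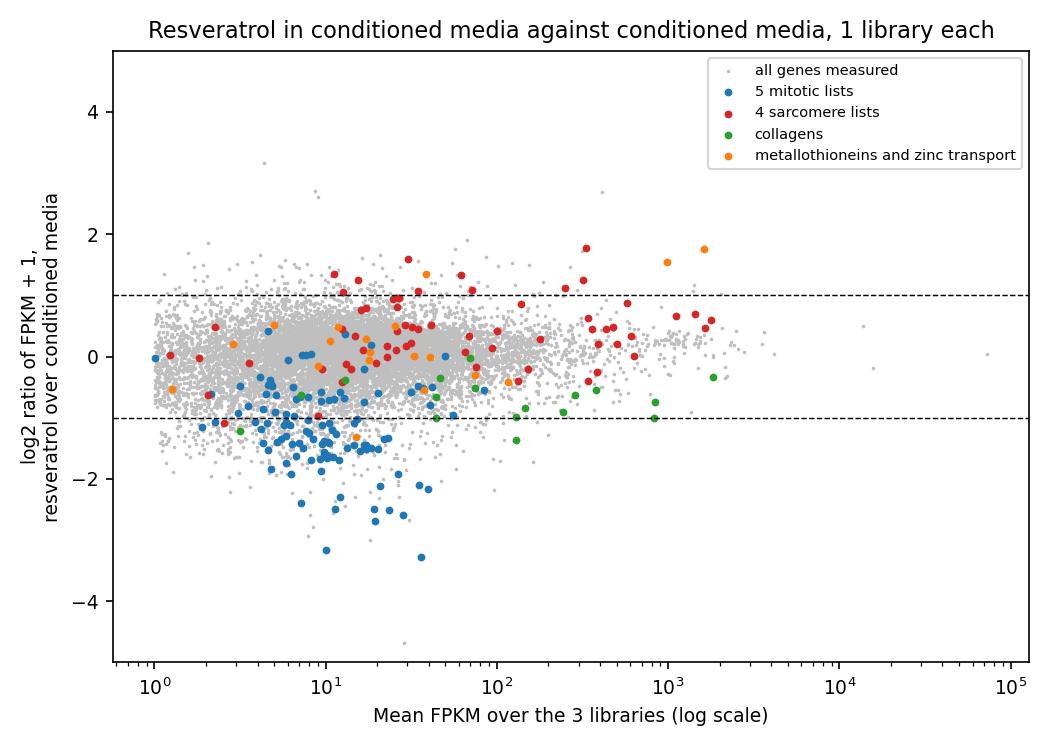
Log2 ratio of FPKM + 1, resveratrol over conditioned media, against the mean FPKM over the 3 libraries (log scale), 1 point a gene, with the size rule as dashed lines. Genes of the 5 mitotic lists (blue) lie mostly below 0, sarcomere genes (red) mostly above it, and 11 microRNA and snoRNA genes, read at 0 in one of the compared libraries, fall outside the axis.

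Genes of mitosis were lower with resveratrol as a group. In 5 lists that follow the mitotic apparatus (cyclins and kinases, activators and substrates of the anaphase-promoting complex, kinetochore and checkpoint, kinesins and spindle, condensin and topoisomerase II), 66 of 110 measured genes were lower by the size rule, 0 were higher, and the median log2 ratio was -1.14 beside 0.03 for all genes. Their median in conditioned media against control medium was 0.27; the comparisons share the conditioned media library. The genes were at moderate levels, with a median of 12.5 FPKM in conditioned media and 4.67 FPKM with resveratrol.

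Among mitotic cyclins and kinases, 15 of 24 genes were lower and all 24 were below 0. Aurka, the Aurora A kinase of spindle poles (chr2:172356190-172370570), was at 13.0 FPKM in control medium, 18.6 FPKM in conditioned media and 2.47 FPKM with resveratrol, a log2 ratio of -2.50. Nek2, a kinase that separates centrosomes, was at 12.0 FPKM in conditioned media and 3.001 FPKM with resveratrol (log2 ratio -1.70), beside 9.54 FPKM in control medium. Aurkb, the kinase of the chromosomal passenger complex that corrects chromosome attachment, was at 13.7, 15.3 and 4.20 FPKM in control medium, conditioned media and conditioned media with resveratrol (log2 ratio -1.65). In each of these genes the resveratrol library was the lowest of the 3 and the conditioned media library the highest. Ccna2, cyclin A2, which acts in S phase and at entry into mitosis, differed little between control medium and conditioned media, with 39.2, 40.2 and 5.85 FPKM in control medium, conditioned media and conditioned media with resveratrol (log2 ratio -2.59).

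The anaphase-promoting complex is the ubiquitin ligase that ends mitosis by destroying cyclins and securin, and its list of activators, substrates and partner enzymes had 5 of 8 genes lower (median -1.22). Ube2c, its ubiquitin-conjugating enzyme (chr2:164769895-164772902), had the lowest ratio of all genes named here, at 59.9 FPKM in conditioned media and 5.29 FPKM with resveratrol (log2 ratio -3.28), beside 43.5 FPKM in control medium. Pttg1, the securin that holds separase inactive, was at 35.2 FPKM in control medium, 57.8 FPKM in conditioned media and 12.7 FPKM with resveratrol, a log2 ratio of -2.10. Espl1, separase itself, was at 5.38, 5.91 and 1.60 FPKM in control medium, conditioned media and conditioned media with resveratrol (log2 ratio -1.41). The enzyme and its inhibitor were both lower, and Gmnn, geminin, a substrate of the same ligase that blocks relicensing of origins, was at 13.6, 15.6 and 9.40 FPKM in control medium, conditioned media and conditioned media with resveratrol (log2 ratio -0.67), short of the size rule. The core subunits of the ligase, which are present throughout the cycle, gave another picture: 0 of 14 passed the rule in either direction and their median was -0.14. Anapc15 had the largest absolute ratio among them, -0.59, in a locus whose span it shares with other loci.

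Of the kinetochore, centromere and checkpoint genes 17 of 43 were lower (median -0.72), and 7 were above 0. Birc5, survivin, a subunit of the chromosomal passenger complex, was at 32.3 FPKM in control medium, 37.9 FPKM in conditioned media and 9.25 FPKM with resveratrol, a log2 ratio of -1.92. Its partners in that complex were also lower, Cdca8 (borealin) with a log2 ratio of -1.70 and Incenp, the scaffold, with -1.56. Cenpf, a large protein of the outer kinetochore, was at 9.67 FPKM in conditioned media and 2.20 FPKM with resveratrol (log2 ratio -1.74), beside 5.79 FPKM in control medium. Nuf2, a microtubule-binding subunit of the Ndc80 complex, was at 13.2, 13.6 and 3.80 FPKM in control medium, conditioned media and conditioned media with resveratrol (log2 ratio -1.61). Sgol2a, a shugoshin that protects centromeric cohesion, was at 6.59, 10.2 and 1.95 FPKM in control medium, conditioned media and conditioned media with resveratrol (log2 ratio -1.92). The list was not uniform: Zwint, Mis12 and Dsn1, kinetochore proteins chosen here after their values were seen, had log2 ratios of 0.02, 0.18 and 0.03.

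Mitotic kinesins, spindle and cytokinesis genes had the lowest median of any list, -1.46, with 24 of 26 lower. Prc1, which bundles the microtubules of the central spindle, was at 23.2 FPKM in control medium, 29.8 FPKM in conditioned media and 4.50 FPKM with resveratrol, a log2 ratio of -2.49. Kif22, a chromosome arm kinesin, was at 11.1 FPKM in conditioned media and 1.32 FPKM with resveratrol (log2 ratio -2.39), beside 9.07 FPKM in control medium. Kif11, the motor that pushes spindle poles apart, was at 11.1, 13.9 and 3.06 FPKM in control medium, conditioned media and conditioned media with resveratrol (log2 ratio -1.88). The resveratrol level of these 3 genes was below the other libraries by more than those differed from each other. Nusap1, a spindle microtubule protein whose locus also holds a small RNA gene, was at 20.3 FPKM in conditioned media and 3.36 FPKM with resveratrol (log2 ratio -2.29), beside 12.9 FPKM in control medium. Aspm, a spindle pole protein, was at 4.98, 7.95 and 1.502 FPKM in control medium, conditioned media and conditioned media with resveratrol (log2 ratio -1.84). Anln, anillin of the contractile ring, had a log2 ratio of -2.12 in a locus whose span is shared by 14 loci, so its reads are less certain. Kinesins that carry cargo along microtubules differed from this: 0 of 18 passed the rule and their median was 0.06, from -0.98 for Kif21b to 0.39 for Kif3a.

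Among chromosome structure genes, condensin and topoisomerase II had 5 of 9 lower. Top2a, the topoisomerase that untangles replicated chromosomes, was at 47.4 FPKM in control medium, 59.3 FPKM in conditioned media and 12.5 FPKM with resveratrol, a log2 ratio of -2.16. Ncaph, a subunit of condensin I, was at 11.1, 13.1 and 4.23 FPKM in control medium, conditioned media and conditioned media with resveratrol (log2 ratio -1.43). Ncapg2, a subunit of condensin II, was at 11.1, 10.3 and 6.59 FPKM in control medium, conditioned media and conditioned media with resveratrol (log2 ratio -0.58). Cohesin, which holds sister chromatids together from S phase on, had a median of 0.06 with 2 of 13 lower, namely Esco2, the acetyltransferase of S phase cohesion (-1.41), and Cdca5, sororin (-1.40). Smc3, a core cohesin ring subunit, had 0.43.

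Origin and replication fork genes did not share this pattern. In the list of origin and fork proteins 0 of 49 genes passed the size rule, 23 were above 0 and 26 below, and the median was -0.03. The same genes had a median of -0.42 in conditioned media against control medium, a comparison that shares the conditioned media library. Ticrr, an origin firing factor, had the largest absolute ratio, with 1.76, 2.01 and 0.790 FPKM in control medium, conditioned media and conditioned media with resveratrol (log2 ratio -0.75). Cdc6, which loads the replicative helicase, was at 1.66 FPKM in conditioned media and 3.19 FPKM with resveratrol (log2 ratio 0.66), beside 5.53 FPKM in control medium. Gins4, a subunit of that helicase, was at 13.4 FPKM in conditioned media and 20.6 FPKM with resveratrol (log2 ratio 0.59), beside 13.4 FPKM in control medium. Cdc6 was higher with resveratrol than in conditioned media and below its control level, while Gins4 was above both other libraries. Of the helicase subunits Mcm2, Mcm3 and Mcm5, also chosen after their values were seen, the ratios were -0.11, -0.05 and -0.09. The list of deoxynucleotide synthesis, which supplies S phase, had 9 of 12 genes below 0 (median -0.24) and 1 lower by the size rule. That gene was Tk1, the cytosolic thymidine kinase, at 27.4, 19.2 and 5.83 FPKM in control medium, conditioned media and conditioned media with resveratrol (log2 ratio -1.57). Rrm1, the large subunit of ribonucleotide reductase, had a log2 ratio of -0.69, and Rrm2b, its small subunit induced by p53, had 0.81, both short of the rule. Homologous recombination and Fanconi genes had 1 of 31 lower, namely the checkpoint kinase gene Chek2 (-1.05), with 22 below 0 and a median of -0.36.

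Around these groups, the transcription factors of the cycle were mixed and none passed the rule among 19 E2F, Rb and MuvB genes (median 0.09). E2f8 and E2f7, atypical E2F repressors, had log2 ratios of -0.95 and -0.82, and Lin52, a MuvB subunit, had 0.88. Foxm1 was read only in a locus that also carries the symbol of an uncharacterised transcript, where the level was 11.8 FPKM in control medium, 9.63 FPKM in conditioned media and 3.56 FPKM with resveratrol, a log2 ratio of -1.22. Among G1 regulators, Ccnd1, cyclin D1, was at 43.8 FPKM in control medium, 33.0 FPKM in conditioned media and 9.55 FPKM with resveratrol, a log2 ratio of -1.69. Cdk6, a partner kinase of the D cyclins, was at 8.01, 8.59 and 3.64 FPKM in control medium, conditioned media and conditioned media with resveratrol (log2 ratio -1.05). These were the 2 genes of 13 that passed the rule, and the list median was -0.58. Cdkn1a, the p21 inhibitor of cyclin-dependent kinases that myoblasts raise as they leave the cycle, was at 623, 575 and 717 FPKM in control medium, conditioned media and conditioned media with resveratrol (log2 ratio 0.32). That was the highest ratio of the list, in which 3 genes were above 0 and 10 below. Other inhibitors of these kinases were below 0, short of the size rule: Cdkn2d had -0.98, Cdkn2c -0.76 and Cdkn1c -0.61. Mki67, the nuclear protein used to stain cycling cells, was at 18.6 FPKM in conditioned media and 10.3 FPKM with resveratrol (log2 ratio -0.80), beside 15.8 FPKM in control medium, short of the size rule although below both other libraries.

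**Figure D2:**
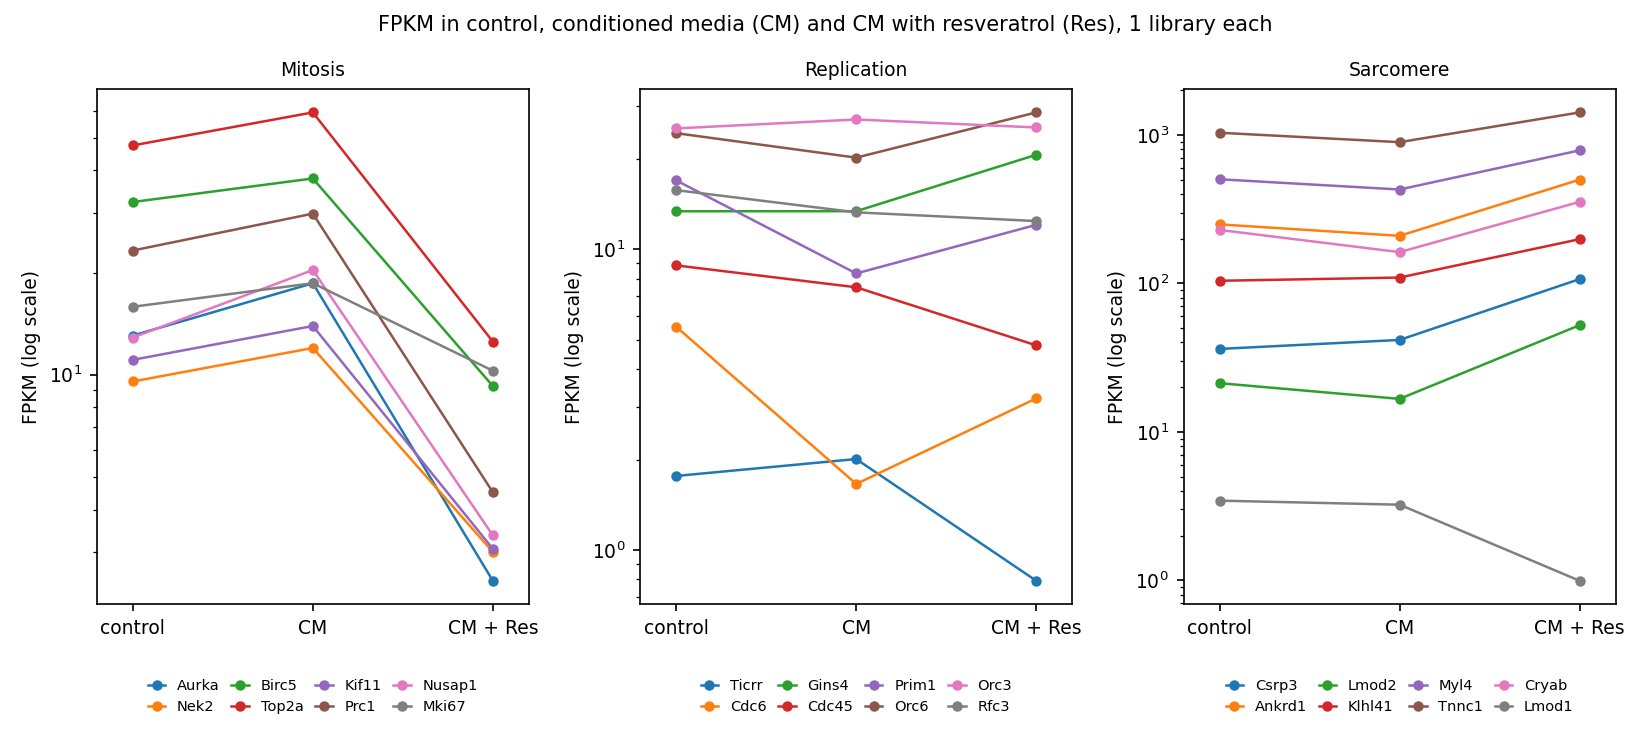
FPKM (log scale) of mitotic, replication and sarcomere genes in the control, conditioned media (CM) and resveratrol (CM + Res) libraries, 1 point a library. The 8 mitotic genes are lowest with resveratrol, the 8 replication genes show no common direction, and 7 of the 8 sarcomere genes are highest with resveratrol, with Lmod1 the exception.

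The promoter motifs were counted over windows from 250 bases before to 50 after the start, for the 8545 measured genes with a RefSeq promoter. Of these windows 11.5% held the CHR letters TTTGAA on either strand, 39.2% a CCAAT box, and 4.88% both. Among 52 lower genes of the mitotic lists 75.0% held a CHR and 65.4% held both motifs, and among the 37 other measured mitotic genes 35.1% and 24.3% did. Mitotic genes with both motifs had a median log2 ratio of -1.34 (43 genes), those with a CHR only -1.29 (9 genes), those with a CCAAT box only -0.85 (19 genes) and those with neither -0.70 (18 genes). Lower genes outside the mitotic lists held a CHR in 16.9% of 296 windows and both motifs in 8.78%, and higher genes held a CHR in 10.4% of 115. Over all 27025 promoters of the table the shares were 18.2% for the CHR and 7.16% for both motifs. The replication genes held an E2F match in 35.0% of 40 windows, beside 4.29% of all measured genes. Sarcomere genes held the E-box CAGCTG in 41.2% of 51 windows, beside 1282 of the 8545 windows of all measured genes. A match is a run of letters, and whether any factor bound there was not measured.

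**Figure D3:**
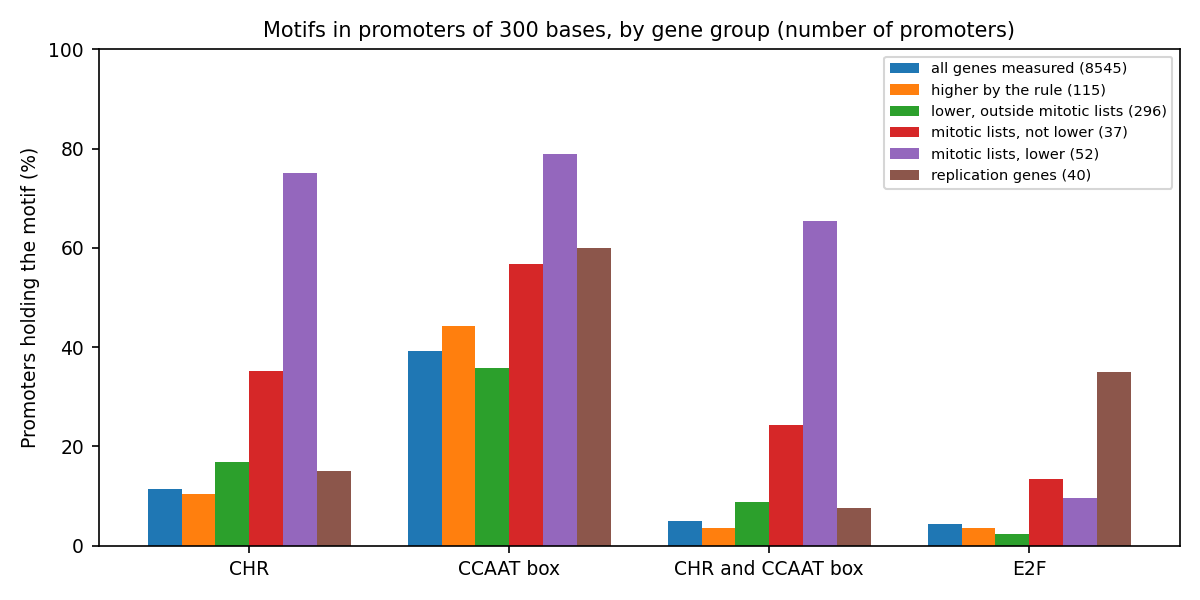
Share of promoters, in percent, that hold a CHR, a CCAAT box, both, or an E2F match, for 6 groups of genes (number of promoters in brackets). The bars for lower mitotic genes are the tallest for the CHR (75.0%) and for both motifs together (65.4%), and the replication genes have the tallest bar for E2F (35.0%).

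Sarcomere genes were mostly above 0, by smaller steps than those of the mitotic genes. In the lists of myosins, troponins and tropomyosins, thin filament proteins, and titin, M-band and Z-disc proteins together, 10 of 64 measured genes were higher and 1 was lower by the size rule, 48 were above 0, and the median was 0.41. The summed level of 12 myotube markers, 5102 FPKM in conditioned media and 7016 FPKM with resveratrol, is no separate measure of this, because 9 of them are members of these lists and hold 4659 and 6261 FPKM of it. The other 3 had log2 ratios of 0.92 for Myog, the transcription factor myogenin, 0.65 for Mb, myoglobin, and -0.37 for Ckm, muscle creatine kinase, and their part in the result was not tested. In the list of titin, M-band, thick filament and Z-disc proteins 7 of 33 measured genes were higher and 0 lower by the size rule. Csrp3, the muscle LIM protein, was at 36.2 FPKM in control medium, 41.6 FPKM in conditioned media and 107 FPKM with resveratrol, a log2 ratio of 1.34. Ankrd1, a titin-binding ankyrin repeat protein induced by stretch, was at 209 FPKM in conditioned media and 500 FPKM with resveratrol (log2 ratio 1.25), beside 250 FPKM in control medium. Cryab, the small heat shock protein alpha B-crystallin that protects desmin and titin, was at 229, 162 and 354 FPKM in control medium, conditioned media and conditioned media with resveratrol (log2 ratio 1.12). Ankrd1 and Cryab were below control in conditioned media and above it with resveratrol, whereas Csrp3 was higher in both treated libraries. Of the 33 genes 25 were above 0 and 8 below. Ttn, titin itself, chosen here after its values were seen, was lowest with resveratrol. It was at 20.0, 10.1 and 7.34 FPKM in control medium, conditioned media and conditioned media with resveratrol (log2 ratio -0.41). Pdlim3, a Z-disc LIM protein, had a log2 ratio of 1.09. Mybph, a myosin binding protein, had 1.77; its span is shared with Adora1, an adenosine receptor gene, for which the ratio was 1.45.

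Among thin filament proteins the leiomodins diverged. Lmod2, which nucleates and lengthens thin filaments of striated muscle, was at 16.7 FPKM in conditioned media and 52.3 FPKM with resveratrol (log2 ratio 1.59), beside 21.3 FPKM in control medium. Lmod1, the smooth muscle member of that family, was at 3.23 FPKM in conditioned media and 0.992 FPKM with resveratrol (log2 ratio -1.09), beside 3.44 FPKM in control medium. Xirp1, an actin-binding repair protein, was at 14.5, 7.16 and 16.01 FPKM in control medium, conditioned media and conditioned media with resveratrol (log2 ratio 1.06). Klhl40 and Klhl41, stabilisers of thin filament proteins, had log2 ratios of 0.95 and 0.85, short of the size rule. Of the myosins, Myl4, the embryonic and atrial light chain, was at 503, 429 and 787 FPKM in control medium, conditioned media and conditioned media with resveratrol (log2 ratio 0.87), and Myh3, the embryonic heavy chain, at 184, 158 and 192 FPKM in control medium, conditioned media and conditioned media with resveratrol (log2 ratio 0.28). Mylk2, the skeletal light chain kinase, had a log2 ratio of -0.98. No troponin or tropomyosin passed the rule among 11; Tnnc1, slow troponin C, was the farthest above 0 (0.67), and Tpm4 and Tpm3, tropomyosins also used in the cytoskeleton, were below it (-0.41 and -0.40).

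Genes of the membrane systems of muscle moved less as groups. For excitation-contraction coupling 1 of 24 measured genes were higher and 1 lower by the size rule (median 0.16). Jph2, a junctophilin that ties the transverse tubule to the sarcoplasmic reticulum, was at 53.9 FPKM in control medium, 31.5 FPKM in conditioned media and 65.7 FPKM with resveratrol, a log2 ratio of 1.04. Pvalb, a calcium buffer of fast fibres, was at 7.21, 5.77 and 1.09 FPKM in control medium, conditioned media and conditioned media with resveratrol (log2 ratio -1.70). Colq, the collagen tail that anchors acetylcholinesterase at the neuromuscular junction, was at 1.09, 5.02 and 1.06 FPKM in control medium, conditioned media and conditioned media with resveratrol (log2 ratio -1.55), so that the higher level in conditioned media was absent with resveratrol. None of 14 dystrophin complex genes and none of 17 fusion and repair genes passed the rule. For the ubiquitin ligases and FoxO factors of atrophy the count was also 0, of 13, with a median of 0.04; Fbxo31 had the largest absolute ratio, 0.40.

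Signalling genes that restrain or feed muscle growth differed in both directions. In the insulin-like growth factor list, 1 of 19 measured genes were higher and 3 lower by the size rule. Irs1, the adaptor below the insulin and IGF-1 receptors, was at 29.4 FPKM in control medium, 34.2 FPKM in conditioned media and 8.90 FPKM with resveratrol, a log2 ratio of -1.83. Irs2, its relative, was at 2.54, 2.75 and 6.58 FPKM in control medium, conditioned media and conditioned media with resveratrol (log2 ratio 1.02). Igf1, the growth factor itself, was at 8.81, 7.65 and 2.01 FPKM in control medium, conditioned media and conditioned media with resveratrol (log2 ratio -1.52). Igfbp5, a binding protein that rises in myoblast differentiation, was at 149 FPKM in conditioned media and 57.1 FPKM with resveratrol (log2 ratio -1.37), beside 124 FPKM in control medium. The adaptors therefore lay on opposite sides of 0, Irs2 at a much lower level than Irs1 in conditioned media. In the activin and TGF-beta list, 1 of 27 measured genes were higher and 2 lower by the size rule: Inhba, the subunit of activin A, was at 33.7 FPKM in conditioned media and 8.24 FPKM with resveratrol (log2 ratio -1.91), beside 39.0 FPKM in control medium, and Tgfb2 had a ratio of -1.19, while Tgfbr1, the type I receptor, had 1.15. For Notch, 3 of 14 measured genes were lower, and 0 were higher (median -0.43). Lfng, a glycosyltransferase that tunes the receptor, was at 6.24, 3.82 and 1.04 FPKM in control medium, conditioned media and conditioned media with resveratrol (log2 ratio -1.24). Heyl, a transcriptional target of Notch, was at 5.26, 2.08 and 0.537 FPKM in control medium, conditioned media and conditioned media with resveratrol (log2 ratio -1.004). Hes1, another target, had -0.78, short of the size rule. In the BMP list Bmp4 and the receptor gene Bmpr1b were lower (-1.13 and -1.19) and the inhibitors of differentiation Id1 and Id3 were higher (1.16 and 1.09). Wisp1, a secreted CCN family protein, was at 178 FPKM in control medium, 92.3 FPKM in conditioned media and 19.5 FPKM with resveratrol, a log2 ratio of -2.18; Ctgf of the same family had 1.16.

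Inflammatory genes differed in both directions. In the chemokine list 3 of 16 measured genes were higher and 2 lower by the size rule (median 0.31). Ccl7, which attracts monocytes, was at 43.5 FPKM in control medium, 56.2 FPKM in conditioned media and 133 FPKM with resveratrol, a log2 ratio of 1.22. Cxcl5, which attracts neutrophils, was at 67.2 FPKM in control medium, 109 FPKM in conditioned media and 48.5 FPKM with resveratrol, a log2 ratio of -1.15. Ccl9 was at 3.21, 11.0 and 2.24 FPKM in control medium, conditioned media and conditioned media with resveratrol (log2 ratio -1.89). Conditioned media thus held the highest level of Cxcl5 and Ccl9, and the resveratrol library that of Ccl7. Ccl17 passed the rule from a low level, 0.516 FPKM in conditioned media and 2.89 FPKM with resveratrol, and it was listed at 0 in control medium. In the IL-6 and STAT3 list 5 of 23 measured genes were higher and 2 lower by the size rule. Pim1, a kinase gene driven by STAT3, was at 6.02, 14.7 and 32.7 FPKM in control medium, conditioned media and conditioned media with resveratrol (log2 ratio 1.10). Il6 itself was at 5.72, 11.5 and 18.6 FPKM in control medium, conditioned media and conditioned media with resveratrol (log2 ratio 0.65), short of the size rule. Socs3, a feedback inhibitor of gp130 receptors, had a ratio of 1.56, while Socs1, its relative that restrains interferon receptors, had -1.24.

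Among inflammatory enzymes, receptors and adhesion molecules, 1 of 18 measured genes were higher and 5 lower by the size rule (median -0.47). Il33, a nuclear alarmin, was at 6.07 FPKM in control medium, 38.2 FPKM in conditioned media and 12.2 FPKM with resveratrol, a log2 ratio of -1.57. Tlr2, a receptor for bacterial lipopeptides, was at 21.3 FPKM in conditioned media and 8.45 FPKM with resveratrol (log2 ratio -1.24), beside 12.7 FPKM in control medium. Il1r1, the receptor for interleukin 1, was at 15.6, 24.8 and 10.2 FPKM in control medium, conditioned media and conditioned media with resveratrol (log2 ratio -1.20). All 3 were highest in conditioned media. Nos2, inducible nitric oxide synthase, was at 94.2 FPKM in conditioned media and 49.5 FPKM with resveratrol (log2 ratio -0.92), beside 15.7 FPKM in control medium, short of the size rule. Ptgs2, the inducible cyclooxygenase, was the 1 higher gene, with a log2 ratio of 1.76. Of NF-kappaB genes, Nfkbie, an inhibitor subunit, was at 7.45, 14.98 and 6.04 FPKM in control medium, conditioned media and conditioned media with resveratrol (log2 ratio -1.18), and Birc3, an inhibitor of apoptosis induced by NF-kappaB, was at 0.304, 2.82 and 0.466 FPKM in control medium, conditioned media and conditioned media with resveratrol (log2 ratio -1.38), while Nfkbiz and Nfkbia had 0.91 and 0.63. Interferon-stimulated genes were lower in 5 of 31 cases, higher in 0, and below 0 in 27 (median -0.47). Irgm1, an immunity-related GTPase, was at 138 FPKM in control medium, 80.1 FPKM in conditioned media and 31.6 FPKM with resveratrol, a log2 ratio of -1.32. Parp14, an ADP-ribosyltransferase, was at 29.9, 21.9 and 8.82 FPKM in control medium, conditioned media and conditioned media with resveratrol (log2 ratio -1.22). Both descended from control medium through conditioned media to resveratrol. MHC class I presentation genes had 0 of 15 past the rule and a median of 0.20, so that antigen presentation and the other interferon targets had medians of opposite sign. H2-T10 was among the highest ratios of all genes (2.68), but 8 loci share its span and its paralogs are close to it in sequence, so its value is uncertain.

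Some immediate early genes were higher. In the AP-1 and EGR list 4 of 18 measured genes were higher and 1 lower by the size rule (median 0.33). Ier2 was at 34.4 FPKM in control medium, 29.8 FPKM in conditioned media and 76.8 FPKM with resveratrol, a log2 ratio of 1.34. Junb, an AP-1 subunit, was at 103, 127 and 259 FPKM in control medium, conditioned media and conditioned media with resveratrol (log2 ratio 1.02). Fos, its dimer partner, was at 2.60, 3.18 and 11.5 FPKM in control medium, conditioned media and conditioned media with resveratrol (log2 ratio 1.58), and Fosl1, the late-acting Fos relative, at 11.2, 9.61 and 3.50 FPKM in control medium, conditioned media and conditioned media with resveratrol (log2 ratio -1.24). Fosl1 and Fos were thus on opposite sides. Zfp36, the RNA-binding protein tristetraprolin that shortens the life of inflammatory mRNAs, was at 11.9 FPKM in conditioned media and 39.7 FPKM with resveratrol (log2 ratio 1.66), beside 10.3 FPKM in control medium. Dusp6 and Dusp2, phosphatases that switch off ERK, had ratios of 1.11 and 1.03, and Klf2 and Klf6, zinc finger factors, had 1.12 and -1.30. The list of MAP kinase phosphatases and Sprouty genes had 8 of 16 genes above 0 and 8 below (median -0.11). By the size rule 2 of them were higher and 1 was lower, namely Spred2 (-1.004).

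Stress genes differed in both directions. The integrated stress response, in which ATF4 and CHOP act when translation initiation is slowed, had 4 of 18 genes lower and 2 higher (median -0.34). Ddit3, which encodes CHOP (chr10:127290793-127311786), was at 46.6 FPKM in control medium, 82.3 FPKM in conditioned media and 239 FPKM with resveratrol, a log2 ratio of 1.53. Nupr1, a small stress-induced chromatin protein, was at 188 FPKM in conditioned media and 623 FPKM with resveratrol (log2 ratio 1.72), beside 130 FPKM in control medium. Against these, Fgf21, a hormone secreted by stressed muscle, was at 28.0 FPKM in control medium, 42.2 FPKM in conditioned media and 9.54 FPKM with resveratrol, a log2 ratio of -2.04. Aldh1l2, a mitochondrial folate enzyme, was at 54.2, 58.8 and 18.1 FPKM in control medium, conditioned media and conditioned media with resveratrol (log2 ratio -1.64). Vldlr, a lipoprotein receptor, was at 5.84, 13.9 and 3.45 FPKM in control medium, conditioned media and conditioned media with resveratrol (log2 ratio -1.74). Targets of the same pathway were therefore found at both ends of the ratios. Serine synthesis genes, also served by ATF4, had Psat1 at -0.90 and Psph at -0.86, short of the rule, and cytosolic aminoacyl-tRNA synthetases had 16 of 18 below 0 with none past the rule (median -0.34). In the endoplasmic reticulum list 1 of 22 measured genes were higher and 0 lower by the size rule: Dnajb9, a co-chaperone of BiP, was at 33.7 FPKM in conditioned media and 98.7 FPKM with resveratrol (log2 ratio 1.52), beside 32.1 FPKM in control medium, and Hspa5, BiP itself, had 0.61. Gadd45a, a stress gene of growth arrest, was at 115, 132 and 309 FPKM in control medium, conditioned media and conditioned media with resveratrol (log2 ratio 1.22), whereas Mdm4, an inhibitor of p53, had -1.17.

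**Figure D4:**
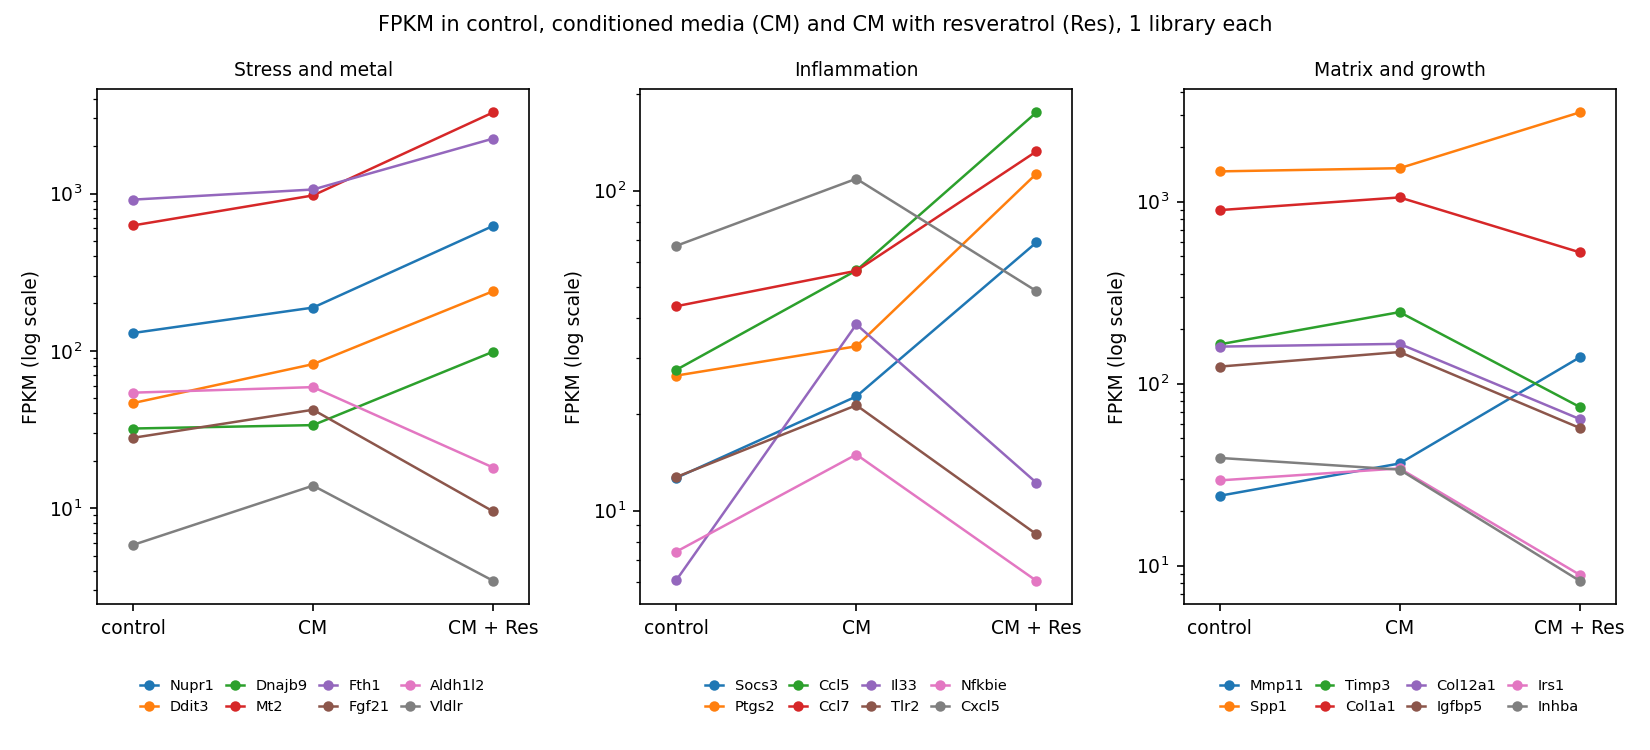
FPKM (log scale) of stress and metal genes, inflammatory genes, and matrix and growth factor genes in the control, conditioned media (CM) and resveratrol (CM + Res) libraries, 1 point a library. Each panel holds genes that are highest with resveratrol (Mt2, Nupr1, Ccl7, Mmp11) and genes that are lowest with it (Fgf21, Aldh1l2, Nfkbie, Inhba).

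Metal and redox genes had a few large differences within lists that moved little. Of metallothioneins and zinc transporters, 3 of 19 measured genes were higher and 1 lower by the size rule (median 0.08). Mt2, a metallothionein that binds zinc and copper, was at 627 FPKM in control medium, 973 FPKM in conditioned media and 3278 FPKM with resveratrol, a log2 ratio of 1.75. Slc39a14, an importer of zinc and iron, was at 25.8 FPKM in conditioned media and 67.5 FPKM with resveratrol (log2 ratio 1.35), beside 22.2 FPKM in control medium. Slc39a10, another zinc importer, was at 15.99, 21.2 and 7.96 FPKM in control medium, conditioned media and conditioned media with resveratrol (log2 ratio -1.31), so the importers were on opposite sides. Fth1, the ferritin heavy chain, was at 915, 1061 and 2235 FPKM in control medium, conditioned media and conditioned media with resveratrol (log2 ratio 1.07). Tfrc, the transferrin receptor that brings iron in, had a log2 ratio of -0.55, and Hmox1, heme oxygenase, had 0.81. In the glutathione, thioredoxin and NRF2 list 2 of 40 measured genes were higher and 0 lower by the size rule (median 0.15), and Slc7a11, the cystine importer, had -0.95.

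Lists of genes tied to resveratrol itself had medians on both sides of 0. Of the aryl hydrocarbon receptor and its targets, 0 of 7 measured genes were higher and 1 lower by the size rule. Cyp1b1, a cytochrome P450 that the receptor induces and that can hydroxylate resveratrol (chr17:79706953-79715087), was at 25.4 FPKM in control medium, 30.4 FPKM in conditioned media and 5.34 FPKM with resveratrol, a log2 ratio of -2.31. Other targets did not pass the rule: Aldh3a1 had a log2 ratio of 0.97, Tiparp 0.23, Nqo1 0.28, and Ahr, the receptor gene, -0.28. In this list 5 of 7 genes were above 0 and the median was 0.19. Its members Cyp1a1 and Cyp1a2, chosen here after their values were seen, were below the threshold on the mean. Sirt1, the deacetylase most often linked to resveratrol, was at 7.48 FPKM in conditioned media and 18.4 FPKM with resveratrol (log2 ratio 1.19), beside 8.72 FPKM in control medium. None of the other sirtuin and mitochondrial biogenesis genes passed the rule among 19; Sirt6 had -0.73. In the list of proteins reported to bind resveratrol, 2 of 15 measured genes were higher and 1 lower by the size rule. In it 5 genes were above 0 and 10 below (median -0.49). Esr1, oestrogen receptor alpha, was at 2.14, 4.85 and 1.72 FPKM in control medium, conditioned media and conditioned media with resveratrol (log2 ratio -1.10). The phosphodiesterase genes Pde4a, Pde4b and Pde4d had ratios of -0.78, -0.82 and -0.96, all short of the rule. Of conjugation and export enzymes of polyphenols, 1 of 7 measured genes was lower and 0 higher by the size rule. In that list 1 gene was above 0 and 6 below (median -0.40). Abcc5, an exporter of organic anions, was at 23.6, 19.7 and 7.08 FPKM in control medium, conditioned media and conditioned media with resveratrol (log2 ratio -1.36).

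In metabolism, glycolysis had 3 of 20 measured genes lower and 0 higher. Pfkp, the platelet type phosphofructokinase, was at 38.1 FPKM in control medium, 74.5 FPKM in conditioned media and 28.4 FPKM with resveratrol, a log2 ratio of -1.36. Slc16a3, which exports lactate, was at 76.0 FPKM in conditioned media and 29.9 FPKM with resveratrol (log2 ratio -1.32), beside 56.8 FPKM in control medium. Slc16a1, which can carry lactate in either direction, was at 28.2, 48.8 and 83.6 FPKM in control medium, conditioned media and conditioned media with resveratrol (log2 ratio 0.76). Hk1, the first enzyme of the pathway, was at 51.5, 74.7 and 36.5 FPKM in control medium, conditioned media and conditioned media with resveratrol (log2 ratio -1.01). Pfkp, Slc16a3 and Hk1 were highest in conditioned media and lowest with resveratrol. Among hypoxia-inducible factors and their targets 2 of 22 were lower, Ndrg1 and P4ha2 (-1.002 and -1.07). In this list 18 genes were below 0 and 4 above it, and the median was -0.29. None of 46 nuclear genes of the respiratory chain passed the rule, with 38 above 0 and a median of 0.14. Of genes for fatty acid oxidation, Cpt1a, which admits fatty acids to the mitochondrion, was at 31.3, 19.8 and 44.3 FPKM in control medium, conditioned media and conditioned media with resveratrol (log2 ratio 1.13). Insig1, which holds the sterol sensor in the endoplasmic reticulum, was at 79.1, 59.6 and 168 FPKM in control medium, conditioned media and conditioned media with resveratrol (log2 ratio 1.48), and Elovl6, an elongase, had -1.17.

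Protein turnover genes were mostly above 0 by small steps. None passed the size rule among 33 autophagy, 37 lysosome, 31 proteasome and 49 cytosolic ribosomal protein genes, and their medians were 0.38, 0.32, 0.25 and 0.25. Of these genes 26, 30, 27 and 48 were above 0, in the same order. The ribosomal protein genes have a median transcript length of 1128 bases, and the 1085 genes with the shortest transcripts (up to 1394 bases) had a median of 0.12, and the part of length in this value was not tested. Ulk2, a kinase that starts autophagy, was at 17.5, 16.5 and 29.9 FPKM in control medium, conditioned media and conditioned media with resveratrol (log2 ratio 0.83). Atg14, which directs the lipid kinase of autophagosome formation, was at 3.70, 4.78 and 9.05 FPKM in control medium, conditioned media and conditioned media with resveratrol (log2 ratio 0.80). Neu1, a lysosomal sialidase, was at 8.01, 6.92 and 14.6 FPKM in control medium, conditioned media and conditioned media with resveratrol (log2 ratio 0.98). Each was higher with resveratrol than in both other libraries.

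Matrix genes were mostly below 0. In 4 lists of collagens, their folding enzymes, metalloproteinases and their inhibitors, and matricellular proteins, 13 of 83 measured genes were lower and 2 higher by the size rule, 68 were below 0 and 15 above it, and the median was -0.37. All 17 measured collagens were below 0, with 3 past the rule and a median of -0.66. Col1a1, the main chain of type I collagen, was just past the rule, at 899 FPKM in control medium, 1056 FPKM in conditioned media and 527 FPKM with resveratrol. Col12a1, a collagen on the surface of fibrils, was at 165 FPKM in conditioned media and 63.9 FPKM with resveratrol (log2 ratio -1.36), beside 160 FPKM in control medium. Loxl4, a lysyl oxidase that cross-links collagen, was at 5.47, 9.70 and 2.46 FPKM in control medium, conditioned media and conditioned media with resveratrol (log2 ratio -1.63). The summed fibroblast marker level also went down, from 3367 to 2359 FPKM, with 0 of 6 measured markers above 0. Of all 8 markers 5 (Col1a1, Col3a1, Dcn, Lum and Mfap5) are themselves members of the matrix lists and went from 3354 to 2349 FPKM, so the sum mostly repeats the values of these lists. The other 3 markers (Pdgfra, Thy1 and Dpt) summed to 13.7 FPKM in conditioned media and 9.99 FPKM with resveratrol, and their part in the result was not tested. Mmp11, stromelysin 3, had the highest ratio of the lists (chr10:75923222-75932502), at 24.2 FPKM in control medium, 36.4 FPKM in conditioned media and 139 FPKM with resveratrol, a log2 ratio of 1.91. Spp1, osteopontin, was at 1468, 1528 and 3097 FPKM in control medium, conditioned media and conditioned media with resveratrol (log2 ratio 1.02). Timp3, an inhibitor of metalloproteinases bound to the matrix, was at 247 FPKM in conditioned media and 74.5 FPKM with resveratrol (log2 ratio -1.72), beside 164 FPKM in control medium. Adamts1 and Adamts4, proteases of proteoglycans, had ratios of -1.42 and -1.19, and Vcan, versican, had -1.09. Of genes served by SRF in the actin cytoskeleton 2 of 21 were lower, Filip1l (-1.67) and Flna, filamin A (-1.07). In this list 17 genes were below 0 and 4 above it, and the median was -0.36.

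**Figure D5:**
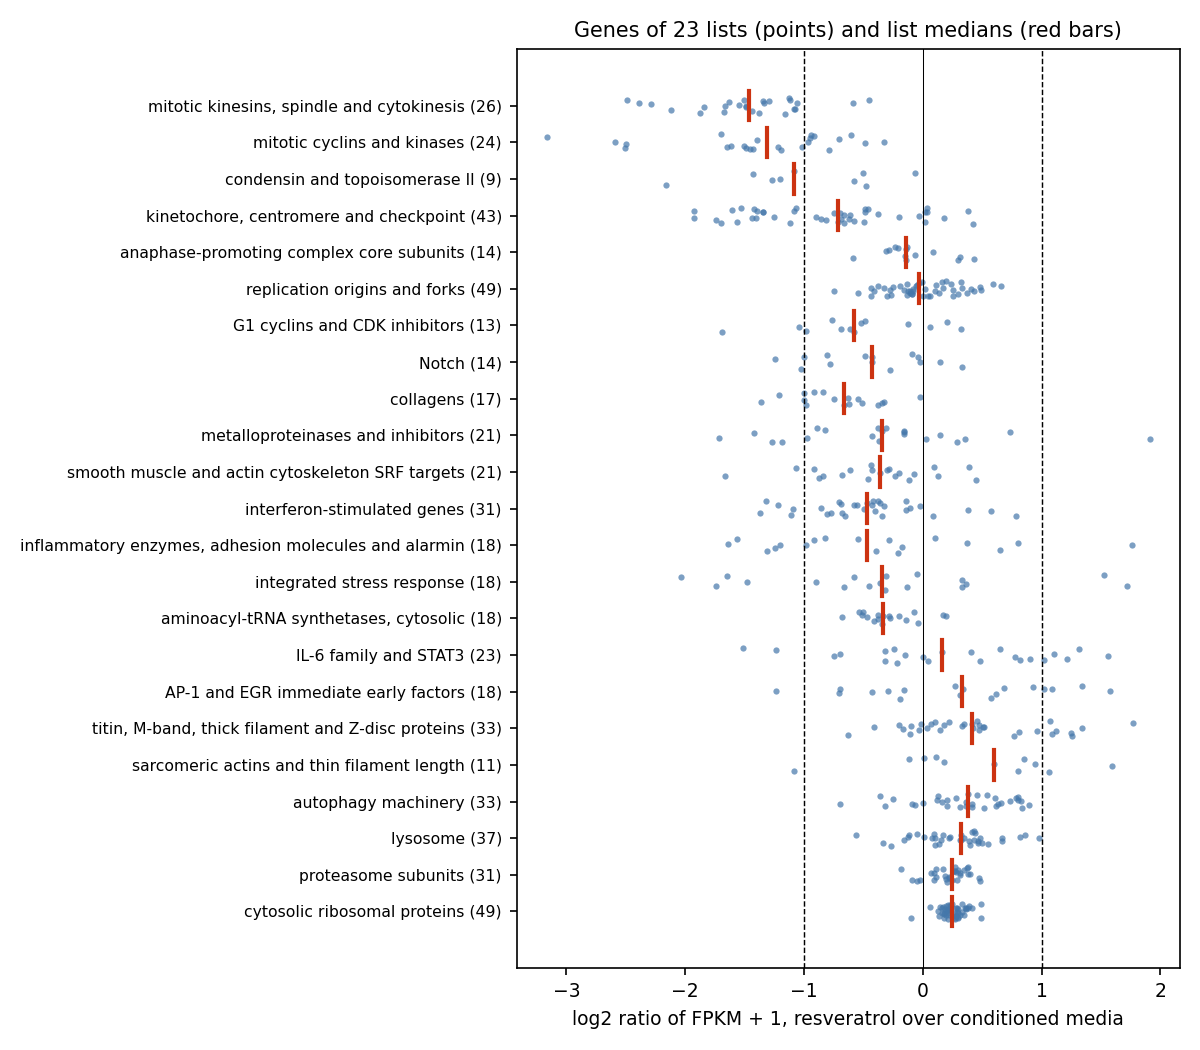
Log2 ratio of FPKM + 1, resveratrol over conditioned media, for each measured gene (points) of 23 lists, with list medians as red bars, gene numbers in brackets and the size rule as dashed lines. The mitotic lists at the top have medians of -1.46 to -0.72, the replication list is centred near 0, and the ribosomal protein genes at the bottom are tightly grouped above 0.

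Several of the genes with the most extreme ratios stood outside these groups. Among the 15 lowest were Mrgprf, an orphan receptor gene, at 12.2 FPKM in control medium, 12.2 FPKM in conditioned media and 0.904 FPKM with resveratrol, a log2 ratio of -2.79, and Krt14, a keratin, at 7.73, 14.8 and 1.62 FPKM in control medium, conditioned media and conditioned media with resveratrol (log2 ratio -2.59). Ch25h, the enzyme that makes 25-hydroxycholesterol, was at 10.7, 20.0 and 2.58 FPKM in control medium, conditioned media and conditioned media with resveratrol (log2 ratio -2.55). Tubb3, a tubulin better known from neurons, was at 12.0, 23.4 and 3.49 FPKM in control medium, conditioned media and conditioned media with resveratrol (log2 ratio -2.44). Each of the 4 was lowest with resveratrol. Among the 15 highest, Rdh10, which oxidises retinol on the way to retinoic acid, was at 9.78 FPKM in conditioned media and 32.0 FPKM with resveratrol (log2 ratio 1.61), beside 7.26 FPKM in control medium, in a span shared with another locus. Atcayos, an antisense transcript, was at 2.36, 2.39 and 21.1 FPKM in control medium, conditioned media and conditioned media with resveratrol (log2 ratio 2.71); without a stated strand setting its reads and those of its partner gene cannot be told apart. Platr17, a long noncoding RNA, was at 1.81, 2.82 and 22.3 FPKM in control medium, conditioned media and conditioned media with resveratrol (log2 ratio 2.61).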

How the data were processed

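RNA-seq libraries from 3 cultures of C2C12 cells were read from the gene table that the authors deposited, whose values are FPKM per locus. The submitters' processing notes name build mm10, Cuffdiff 2.2.1.3 and Cufflinks 2.2.1.0, the aligners TopHat2 2.1.0 and Bowtie, and for read quality Trim Galore 0.4.3.1 and FastQC 0.69. No source used here gives the annotation, the strand setting or how libraries were scaled. Only the FPKM values were used. With 1 library per group no test was made, and the p-values in the table were not used. Loci with a mean of 1 FPKM or more entered, and the log2 ratio of FPKM + 1 was computed in Python 3.11.15 with pandas 2.3.3 and numpy 2.4.6. The pseudocount of 1 understates differences of genes at low levels. The size rule was tested on simulated data. There the spread was set in advance, so this checked only the calling step. It cannot tell how many calls in the real libraries come from noise, because 1 library per group gives no spread. Named genes are the 15 highest and 15 lowest ratios with a mean of 5 FPKM or more, outside predicted models and small RNA genes, up to 6 per gene list with the largest absolute ratio, 18 genes by name, and the genes of the printed sequences. Any other gene is said to be chosen after its values were seen, or stands beside a gene whose locus it shares. Some genes that this rule takes are not reported here. The members, the lists and the rule were chosen with earlier results of these data known. Of 1795 listed symbols 1734 were found and 1573 passed the threshold on the mean. That threshold can be met through 1 library alone. Promoter windows were taken from RefSeq by symbol for 8545 of 11211 genes, and motifs were searched on both strands. Alternatives were pseudocounts of 0.1 and 5, a minimum mean of 5 FPKM or none, centring, rescaling to TPM, restricted sets of loci and a 1.5-fold threshold.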

Additional observations from a re-analysis of the deposited data

How the results depend on the processing

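No paired analysis was possible because each group is 1 library, and no library could be left out. The counts of genes past the size rule depended on the settings. The 160 higher genes (182 loci) became 264 (299) with a pseudocount of 0.1, 56 (65) with a pseudocount of 5, 86 (99) after rescaling to TPM and 837 (900) at 1.5-fold. The 516 lower genes (589 loci) became 168 (178) with a pseudocount of 5, 341 (359) at a mean of 5 FPKM or more, 256 (274) after rescaling and 1348 (1500) at 1.5-fold, and a pseudocount of 0.1 gave 884 lower loci. Rescaling divides the values, so a pseudocount of 1 weighs more. List medians of -1 or less moved above it with a pseudocount of 5: -0.88 for mitotic cyclins and kinases, -0.69 for the anaphase-promoting complex activators, -0.998 for mitotic kinesins, -0.83 for condensin and -0.77 for the mitotic lists together. After rescaling they were -0.88 for the activators, -0.94 for condensin and -0.92 for the mitotic lists together. A list median changed sign in 2 cases. That of myogenic and MEF2 factors went from -0.13 to 0.012 without genes that hold a small RNA gene, and that of CCN and YAP targets went from -0.16 to 0.011 with ratios centred within bins of transcript length, an alternative chosen after seeing the data. Of 166 named genes past the size rule, 72 fell short of it with a pseudocount of 5 and 43 after rescaling to TPM, 10 after centring by length and 6 after centring on the median. None changed sign in any alternative run that gave it a value. Depth is unknown, and the pseudocount and the single libraries limit what genes of a few FPKM can show.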

Other observations

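Splicing factors and other groups outside the report gave further values. None of 30 SR and hnRNP genes passed the size rule. Srsf2, an SR protein of exon inclusion, was at 124 FPKM in control medium, 83.1 FPKM in conditioned media and 140 FPKM with resveratrol, a log2 ratio of 0.75. Srsf7 and Srsf5, of the same family, had log2 ratios of 0.81 and 0.68. Hnrnpa3, an RNA-binding protein of the hnRNP family, had -0.67. Among cytosolic chaperones, Hspb8, a small heat shock protein that works with autophagy, was at 89.2, 89.4 and 202 FPKM in the same order of libraries, a log2 ratio of 1.17. Hsph1, a nucleotide exchange factor of Hsp70, was at 47.6, 18.1 and 33.2 FPKM, a log2 ratio of 0.84. Cry1, a repressor of the circadian clock, had 0.92 and none of 16 clock genes passed the rule. Sat1, which acetylates polyamines for export, was at 116, 123 and 215 FPKM, a log2 ratio of 0.80. Txnip, an arrestin domain protein that restrains glucose uptake, was at 48.4, 168 and 299 FPKM, a log2 ratio of 0.82. Arrdc2, of the same arrestin family, was at 5.19 FPKM in conditioned media and 14.7 FPKM with resveratrol, a log2 ratio of 1.34. Of 14 measured BCL2 family genes 13 were below 0, 1 of them lower by the size rule, and the median was -0.37. The lower gene was Bid, which promotes apoptosis, at 30.9, 21.3 and 8.55 FPKM, a log2 ratio of -1.22. Bcl2l11, another such protein, had 0.99 and was the 1 gene above 0.

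The 360 member loci without a gene symbol were past the size rule more often than named genes, with 19 higher (5.28%) and 58 lower (16.1%). Their median level was 2.78 FPKM in conditioned media and 2.14 FPKM with resveratrol, and their median log2 ratio was -0.23. Of 53 loci of 200 bases or less, 5 were higher and 2 lower.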
